A study of Mus musculus with 12 samples.

Results

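The microglia identity genes examined here are 32 genes that are associated with microglia rather than with other macrophages. They were taken from the deposited count table by symbol, and all 32 were found among 36491 gene identifiers. Of these, 31 were among the 18875 genes with enough counts to test. Gal3st4, which encodes a galactose sulfotransferase, was the exception, with 7 counts over all 12 libraries and 0 to 2 in any 1 library. A count of 0 allows up to 3 counts, or 0.0496 to 0.166 CPM (counts scaled to the size of the library) depending on the library. Almost all of its exon bases (99%) are shared with the gene model Gm43720, which had 10 counts in all, so no level is given for it.

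RNA was sequenced from cells of the brains of adult male C57BL/6J wild-type mice, 6 months old, collected by magnetic sorting with beads against CD11b. All mice had received a bone marrow transplant and then 2 weeks of food with PLX5622, which blocks the CSF1 receptor on which microglia depend for survival, and 6 weeks of ordinary chow. The 4 groups of 3 libraries differ in whether the head was shielded at the transplant and in whether 50 µg of bacterial lipopolysaccharide (LPS), which activates macrophages through Toll-like receptors, or saline was injected into the peritoneum 6 h before collection. They are called shielded or unshielded, and with or without LPS. The series asks about macrophages from outside the brain that settle there and how far they differ from microglia. CD11b is carried by microglia, by brain macrophages that come from the marrow and by other myeloid cells, so the sort does not separate them. Whether each library came from its own animal is not stated in the labels, so the p-values rest on a spread between libraries that may be technical.

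Microglia arise from precursors of the yolk sac and renew themselves within the brain. Signals of that tissue, among them TGF-beta, keep up a set of genes that monocyte-derived macrophages express weakly or not at all, and these genes serve as markers of microglia. Many of them are known to fall when microglia are activated, so a low level alone does not tell an activated microglial cell from a macrophage of another origin. In bulk libraries such as these, fewer cells of a type and less RNA per cell cannot be told apart. In the unshielded mice the head also lay in the radiation field, and an effect of the radiation and the presence of other cells cannot be told apart by this design.

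Depth was 28770354 to 42931839 counts in shielded libraries without LPS, 29794946 to 40730784 after LPS, 18090977 to 40792878 in unshielded libraries without LPS and 56776710 to 60495968 after LPS. None of 6 general microglia genes, among them Cx3cr1, P2ry12, Csf1r, Aif1 and Itgam, was at 0 in any library. This does not measure how pure the sort was, since no neuron or oligodendrocyte marker listed below was at 0 either. The titles put 3 shielded libraries in the group without LPS, but for numbers 2 and 3 the treatment field names LPS. The mean log2 CPM of 10 LPS-response genes such as Il1b, Tnf and Cxcl10 was 2.94 to 3.75 in the 3 shielded libraries titled as without LPS and 8.10 to 8.66 in shielded libraries after LPS. It was 3.15 to 4.51 and 7.34 to 7.89 in the unshielded groups. Groups follow the titles, and results without the doubtful libraries are given where they end a call of an identity gene.

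The identity genes fell with LPS in part and were lower in unshielded mice in most cases. In shielded mice 15 of the 31 genes fell with LPS (edgeR adjusted p under 0.05), where 35.1% of all genes tested fell, and 1 rose, where 32.4% of all genes rose. In unshielded mice 14 fell with LPS beside 18.8% of all genes, and 2 rose beside 24.3%. Without LPS, 19 were lower in unshielded than in shielded mice, beside 6.85% of all genes, and 1 was higher, beside 3.98%. After LPS, 21 were lower, beside 25.6% of all genes, and 5 were higher, beside 19.1%. The genes that fell with LPS were thus 48.4% of the identity genes in shielded and 45.2% in unshielded mice, and those lower in unshielded mice were 61.3% without and 67.7% after LPS. Of these shares the one by shield without LPS lay farthest above its background.

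The size of the changes was also unequal. The median log2 fold change of the 31 genes was -0.44 with LPS in shielded mice and -0.59 in unshielded mice, beside -0.14 and -0.06 for all genes. By shield it was -0.96 without LPS and -1.19 after LPS, beside 0.00 and 0.07 for all genes. A fall of at least 2-fold was called for 9 genes with LPS in shielded mice, a share near the 24.7% of all genes. In unshielded mice it was called for 8, beside 7.72% of all genes. By shield, 14 genes were called at least 2-fold lower without LPS (1.79% of all genes) and 16 after LPS (4.33%). All 3 unshielded libraries were below all 3 shielded libraries for 24 genes without LPS (19.4% of all genes) and for 21 after LPS (27.6%).

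**Figure D1:**
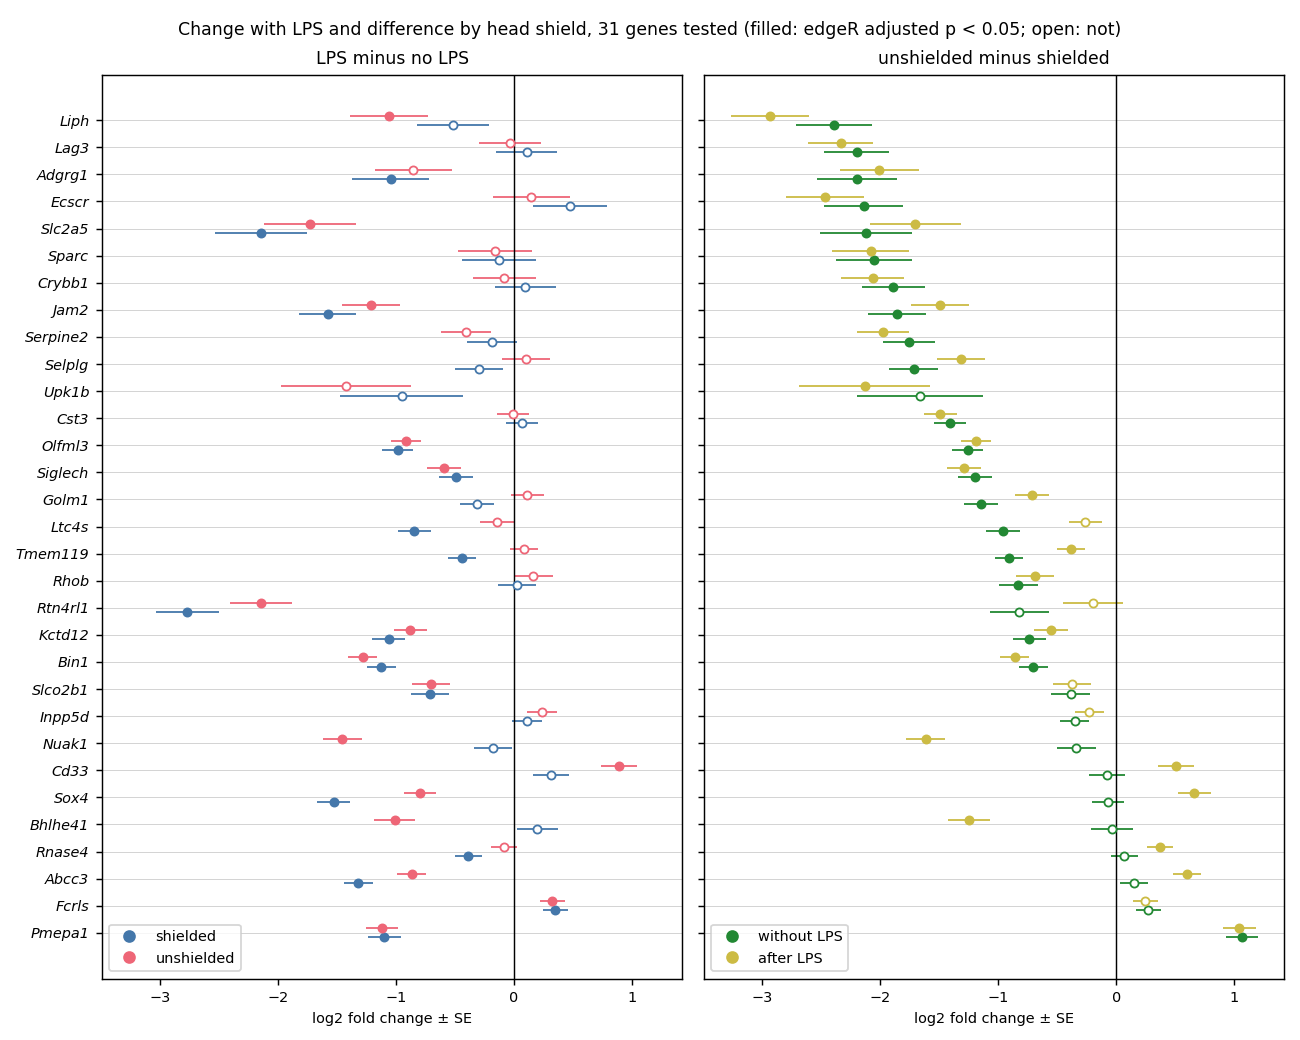
Log2 fold change ± SE (horizontal axis) of each of the 31 tested genes (rows, ordered by the shield difference without LPS), for LPS minus no LPS on the left and unshielded minus shielded on the right. Filled points passed the edgeR test at an adjusted p under 0.05: 15 genes fell with LPS in shielded mice, and 19 were lower in unshielded mice without LPS.

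The genes fell into partly different sets. The LPS comparisons of the shield states share no library, and 11 genes fell with LPS in both, which is 73.3% of those that fell in shielded mice and 78.6% of those that fell in unshielded mice. They were Siglech, Olfml3, Slc2a5, Bin1, Sox4, Pmepa1, Rtn4rl1, Abcc3, Kctd12, Slco2b1 and Jam2. For all genes the shares were 43.9% and 82%. The shield comparisons without and after LPS also share no library, and 18 genes were lower in unshielded mice in both, which is 94.7% and 85.7% of the genes called lower, beside 75.5% and 20.2% for all genes. The LPS comparisons and the shield comparisons do share libraries, so their values are only set side by side for each gene.

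Per kilobase of exon, the identity genes covered a wide range of levels in shielded mice without LPS. Cst3 had the highest mean at 15780 CPM per kb, followed by Sparc at 1318, Tmem119 at 838, Rhob at 780.2 and Fcrls at 754. Liph had the lowest at 5.39 CPM per kb, below Sox4 at 10.9. Together the 32 genes made up 4.71 to 5.37% of all counts in shielded libraries without LPS, 3.40 to 3.72% in shielded libraries after LPS, 2.15 to 2.81% in unshielded libraries without LPS and 1.71 to 2.10% after LPS. These 4 ranges do not overlap, but the separation by LPS depends on the scaling. As TMM-scaled sums, the shielded ranges without and after LPS overlap (41740 to 49950 and 38440 to 43900 CPM). The unshielded ranges do too (18400 to 24480 and 18390 to 21700 CPM). Cst3, which was not called with LPS, is the largest part of these sums, so they do not stand for each gene.

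Promoters are shown for 4 members: Siglech and Slc2a5 were lower with LPS and by shield, Fcrls was higher with LPS, and Cst3 was called by shield and not with LPS. Each is a RefSeq window of mouse build GRCm38.p6 from 250 bases before to 50 bases after a transcription start, given on the gene's own strand. The counts were made on mm9, so no position was joined to them. Capitals mark a match to GGAAGT, the core bound by ETS factors such as PU.1, or to its reverse complement ACTTCC, and to the E-box CACGTG. The windows lie at chr7:55767934-55768233 on the plus strand for Siglech, chr3:87263475-87263774 on the minus strand for Fcrls, chr2:148875463-148875762 on the minus strand for Cst3 and chr4:150119094-150119393 on the plus strand for Slc2a5.
Siglech: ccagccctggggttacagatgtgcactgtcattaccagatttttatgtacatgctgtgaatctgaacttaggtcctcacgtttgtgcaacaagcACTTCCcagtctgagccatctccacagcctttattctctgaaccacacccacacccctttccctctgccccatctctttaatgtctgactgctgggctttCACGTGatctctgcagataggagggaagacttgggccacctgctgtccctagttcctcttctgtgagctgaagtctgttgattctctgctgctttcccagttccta
Fcrls: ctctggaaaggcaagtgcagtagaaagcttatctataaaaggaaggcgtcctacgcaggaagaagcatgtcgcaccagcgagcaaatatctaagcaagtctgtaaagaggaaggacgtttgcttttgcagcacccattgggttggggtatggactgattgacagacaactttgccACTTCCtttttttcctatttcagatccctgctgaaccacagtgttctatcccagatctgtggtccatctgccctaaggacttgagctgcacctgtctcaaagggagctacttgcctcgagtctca
Cst3: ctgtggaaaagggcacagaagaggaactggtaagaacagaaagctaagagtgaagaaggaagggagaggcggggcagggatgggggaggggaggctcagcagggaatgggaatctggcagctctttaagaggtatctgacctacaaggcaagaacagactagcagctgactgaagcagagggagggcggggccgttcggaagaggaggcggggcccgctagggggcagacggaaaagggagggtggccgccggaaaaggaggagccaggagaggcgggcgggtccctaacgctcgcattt
Slc2a5: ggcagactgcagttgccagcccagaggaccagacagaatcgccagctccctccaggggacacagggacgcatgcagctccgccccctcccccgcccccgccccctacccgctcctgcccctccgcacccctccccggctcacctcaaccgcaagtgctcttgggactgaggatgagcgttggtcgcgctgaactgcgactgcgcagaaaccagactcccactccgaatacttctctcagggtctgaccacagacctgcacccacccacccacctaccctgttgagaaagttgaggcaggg

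Windows were found for 21 of the 32 members, some with more than 1 start, giving 25 windows. GGAAGT on either strand was present in 10 of the 25 (40%), from 9 members (Cd33, Fcrls, Golm1, Inpp5d, Liph, Ltc4s, Rnase4, Siglech and Slco2b1), and in 23.8% of the 32851 windows of all genes. In Siglech it starts 156 bases before the transcription start and in Fcrls 75 bases before it. CACGTG was present in 2 windows (8%), those of Bhlhe41 and of Siglech, 56 bases before the start in Siglech, and in 7.15% of all windows. The 4 other motifs searched, the composite of ETS and IRF, MEF2, SMAD (GTCTAGAC) and NF-kB, were in 2.72, 3.69, 0.213 and 1.63% of all windows and in none of the members' windows. Both strands were searched, and matches of different motifs may overlap. These are matches of letters, not sites of binding. Windows were not found for Pmepa1, Selplg, Gal3st4, Abcc3, Rtn4rl1, Jam2, Ecscr, Bin1, Tmem119, Lag3 and Upk1b.

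Among the 11 genes of surface receptors and adhesion proteins, 5 fell with LPS in shielded mice and 3 in unshielded mice, beside 35.1% and 18.8% of all genes. Lower in unshielded mice were 7 without LPS and 8 after LPS, beside 6.85% and 25.6%. Tmem119 (ENSMUSG00000054675), a transmembrane protein used as a marker of microglia, stood at 1855, 2104 and 1864 CPM in shielded libraries without LPS and at 1621, 1324 and 1343 after LPS. In unshielded libraries it stood at 1017, 1157 and 929 CPM without LPS and at 1102, 1187 and 1002 after LPS. All shielded libraries were above all unshielded ones, and LPS libraries lay below the others in the shielded state but not in the unshielded state. The log2 fold change with LPS was -0.44 ± 0.12 (SE, edgeR adjusted p = 0.00585) in shielded mice and 0.09 ± 0.12 (adjusted p = 0.575) in unshielded mice, and the difference of these effects did not pass the test (0.53 ± 0.17, adjusted p = 0.057). That difference did pass without shielded LPS library 1 (0.0481), with DESeq2 (0.032), with library totals (0.0144) and with a neuron and oligodendrocyte covariate (0.00883). By shield it was -0.91 ± 0.12 without LPS (adjusted p = 0.000481) and -0.38 ± 0.12 after LPS (adjusted p = 0.0203). The call after LPS ended without shielded LPS library 1 (adjusted p = 0.0682) or unshielded LPS library 3 (0.0831), and without a filter on low counts (0.0701). That call also ended with a replicate block (0.0717).

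Siglech (ENSMUSG00000051504), a sialic acid-binding receptor of microglia, went down in both comparisons. It had 937, 1076 and 856 CPM in shielded libraries without LPS and 688, 735 and 616 after LPS. Unshielded libraries had 369.8, 521 and 365 CPM without LPS and 294, 278 and 261 after LPS. No neighbouring groups overlapped. LPS lowered it in both shield states, with log2 fold changes of -0.49 ± 0.14 in shielded mice (edgeR adjusted p = 0.00878) and -0.59 ± 0.14 in unshielded mice (adjusted p = 0.00491). The shield difference was larger, at -1.19 ± 0.14 without LPS (adjusted p = 0.000325) and -1.29 ± 0.14 after LPS (adjusted p = 2.59e-05). Without the 2 doubtful libraries the LPS call in shielded mice ended for both genes, at -0.37 for Tmem119 (adjusted p = 0.113) and -0.46 for Siglech (adjusted p = 0.084).

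Fcrls (ENSMUSG00000015852), a scavenger receptor of the Fc receptor-like family, passed the test as higher with LPS in both shield states, though neither call held under all settings. It had 1723, 1842 and 1713 CPM in shielded libraries without LPS and 2223, 2320 and 2189 after LPS. In unshielded libraries it had 2468, 1994 and 1912 CPM without LPS and 2678, 2715 and 2594 after LPS. LPS libraries were above the others within each shield state, though unshielded library 1 without LPS came near them, with log2 fold changes of 0.35 ± 0.10 (edgeR adjusted p = 0.0103) and 0.33 ± 0.10 (adjusted p = 0.0235). Scaled by library totals rather than TMM, these values were 0.00 and 0.03 (adjusted p = 0.97 and 0.755), since that scaling moves the median of all genes from -0.14 to -0.49 with LPS under the shield and from -0.06 to -0.36 without it. Without the doubtful libraries both calls ended (0.38, adjusted p = 0.0922, and 0.32, adjusted p = 0.0524), and without a filter on low counts they did too (adjusted p = 0.074 and 0.053). The unshielded call ended without any of 5 single libraries: shielded LPS 2 (0.0501), shielded without LPS 1 (0.0527), unshielded LPS 1 (0.0808) and unshielded without LPS 2 (0.26, adjusted p = 0.127) or 3 (0.22, adjusted p = 0.151). That call also ended with a replicate block (0.34, adjusted p = 0.0859). The shield difference did not pass the test, at 0.27 ± 0.10 without LPS (adjusted p = 0.132) and 0.25 ± 0.10 after LPS (adjusted p = 0.0707), but it passed with library totals (adjusted p = 0.0375 and 0.00834) and, after LPS, in a fit of only the groups compared (0.0277).

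Cd33, a sialic acid-binding inhibitory receptor, rose with LPS in unshielded mice. Its levels were 703, 782 and 607 CPM in shielded libraries without LPS, 860.3, 1007 and 724 in shielded libraries after LPS, 629, 683 and 673 in unshielded libraries without LPS and 1082, 1498 and 1099 in unshielded libraries after LPS. The unshielded LPS libraries were above all the others. The log2 fold change with LPS was 0.89 ± 0.15 in unshielded mice (edgeR adjusted p = 0.000511) and 0.31 ± 0.15 in shielded mice (adjusted p = 0.0874; 0.30 with a replicate block, adjusted p = 0.0123; adjusted p = 0.0171 without shielded LPS library 3 and 0.0276 without unshielded LPS library 2). After LPS it was higher in unshielded mice (0.51 ± 0.15, adjusted p = 0.0176), a call that ended without shielded LPS library 1 (0.0663) or 3, where the value was 0.34 (0.0774).

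Lag3 (ENSMUSG00000030124), an inhibitory receptor that binds MHC class II, differed by shield and not detectably with LPS. It had 579, 791 and 599 CPM in shielded libraries without LPS, 765, 782 and 572 after LPS, 100.2, 214 and 116 in unshielded libraries without LPS and 166, 141 and 114 after LPS. The lowest shielded library lay above the highest unshielded library in either state. Lag3 was 4.58-fold lower in unshielded mice without LPS (log2 fold change -2.20 ± 0.28, edgeR adjusted p = 0.000519) and 5.04-fold lower after LPS (-2.33 ± 0.28, adjusted p = 5.76e-05). With LPS the log2 fold change was 0.11 ± 0.26 in shielded mice (adjusted p = 0.73) and -0.03 ± 0.26 in unshielded mice (adjusted p = 0.93).

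Selplg (ENSMUSG00000048163), the ligand of P-selectin, and Ecscr (ENSMUSG00000073599), a small surface protein first described in endothelial cells, followed the pattern of Lag3. Selplg had 2077, 2617 and 2150 CPM in shielded libraries without LPS, 1811, 2061 and 1704 after LPS, 554, 957 and 573 in unshielded libraries without LPS and 878, 748 and 614 after LPS. Ecscr had 54.5, 81.2 and 58.4 CPM in shielded libraries without LPS, 81.0, 102 and 85.7 after LPS, 10.7, 24.0 and 10.1 in unshielded libraries without LPS and 21.7, 12.2 and 14.8 after LPS. For both genes every shielded library exceeded every unshielded one. The log2 fold change by shield was -1.72 ± 0.21 without LPS and -1.32 ± 0.20 after LPS for Selplg (edgeR adjusted p = 0.000354 and 0.000285), and for Ecscr it was -2.14 ± 0.33 and -2.47 ± 0.33 (adjusted p = 0.00195 and 0.000159). Neither passed the test with LPS in shielded mice (Selplg -0.30 ± 0.20, adjusted p = 0.208; Ecscr 0.47 ± 0.31, adjusted p = 0.197), but with a replicate block both did (-0.30, adjusted p = 0.0115; 0.48, adjusted p = 0.00304). Of 7 endothelial marker genes, none was called by shield without LPS with edgeR or DESeq2 (1 at an unadjusted p under 0.05), and their summed level was 176 to 296 CPM in shielded and 245 to 271 CPM in unshielded libraries. After LPS 2 of the 7 were called higher and 1 lower in unshielded mice by both tools. Of all genes, edgeR called 10.8% in either direction without LPS, and 19.1% higher and 25.6% lower after LPS.

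Adgrg1, an adhesion G protein-coupled receptor, and Jam2, a junctional adhesion molecule, were lower both with LPS in shielded mice and by shield. Adgrg1 had 641, 906 and 689 CPM in shielded libraries without LPS, 364, 410 and 312 after LPS, 103, 259 and 127 in unshielded libraries without LPS and 124, 74.8 and 71.7 after LPS. Jam2 had 81.9, 108 and 80.7 CPM in shielded libraries without LPS, 28.4, 32.05 and 30.1 after LPS, 18.7, 35.1 and 21.2 in unshielded libraries without LPS and 13.8, 7.89 and 10.4 after LPS. For Jam2 the shielded LPS libraries overlapped the unshielded libraries without LPS, so the levels of these groups were not apart. Its log2 fold change was -1.58 ± 0.24 and -1.21 ± 0.25 with LPS in shielded and unshielded mice (edgeR adjusted p = 0.000176 and 0.00222), and -1.86 ± 0.24 and -1.49 ± 0.25 by shield (adjusted p = 0.000691 and 0.000584). For Adgrg1 the fall with LPS was -1.04 ± 0.33 in shielded mice (adjusted p = 0.0154) and -0.85 ± 0.33 in unshielded mice (adjusted p = 0.0556; past the threshold with DESeq2 at 0.0142, and without unshielded LPS library 1 at 0.023 or unshielded library 1 or 3 without LPS at 0.0164 and 0.0457), and the shield difference was -2.20 ± 0.34 and -2.005 ± 0.335 (adjusted p = 0.00181 and 0.000685). The LPS call of Adgrg1 in shielded mice ended without shielded LPS library 3 or without shielded library 2 of those without LPS (adjusted p = 0.0561 in each case), and without both doubtful libraries (-0.82, adjusted p = 0.185).

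Rtn4rl1 (ENSMUSG00000045287), a receptor of the Nogo receptor family, had the largest fall with LPS of the 31 genes in either shield state. It had 154, 202 and 165 CPM in shielded libraries without LPS and 20.6, 22.9 and 33.0 after LPS. In unshielded libraries it had 93.2, 111 and 91.2 CPM without LPS and 32.6, 18.3 and 16.0 after LPS. The LPS libraries of both shield states lay in the same range. The fall was 6.81-fold in shielded mice (log2 fold change -2.77 ± 0.27, edgeR adjusted p = 4.74e-06) and 4.42-fold in unshielded mice (-2.14 ± 0.26, adjusted p = 6.27e-05). By shield it was -0.82 ± 0.25 without LPS (adjusted p = 0.0621; -0.81 and 0.012 with DESeq2, 0.00194 in a fit of only the groups compared, and 0.0423, 0.00713 and 0.0444 without shielded LPS library 3 or unshielded LPS library 1 or 3) and -0.19 ± 0.26 after LPS (adjusted p = 0.547; -0.61 and adjusted p = 0.0252 without unshielded LPS library 1). Upk1b, a tetraspanin of the uroplakin family, was the last of this role and the most variable, from 1.48 to 32.8 CPM over the 12 libraries. It passed the edgeR test by shield after LPS (-2.13 ± 0.55, adjusted p = 0.00954). DESeq2 also called it by shield without LPS (-1.63, adjusted p = 0.0466) and with LPS in unshielded mice (-1.46, adjusted p = 0.0352). It was called with LPS in shielded mice under a replicate block (-0.93, adjusted p = 0.00566). Without unshielded library 2 of those without LPS, which had 16.1 CPM beside 2.94 and 6.63, it also passed by shield without LPS (-2.48, adjusted p = 0.00981).

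**Figure D2:**
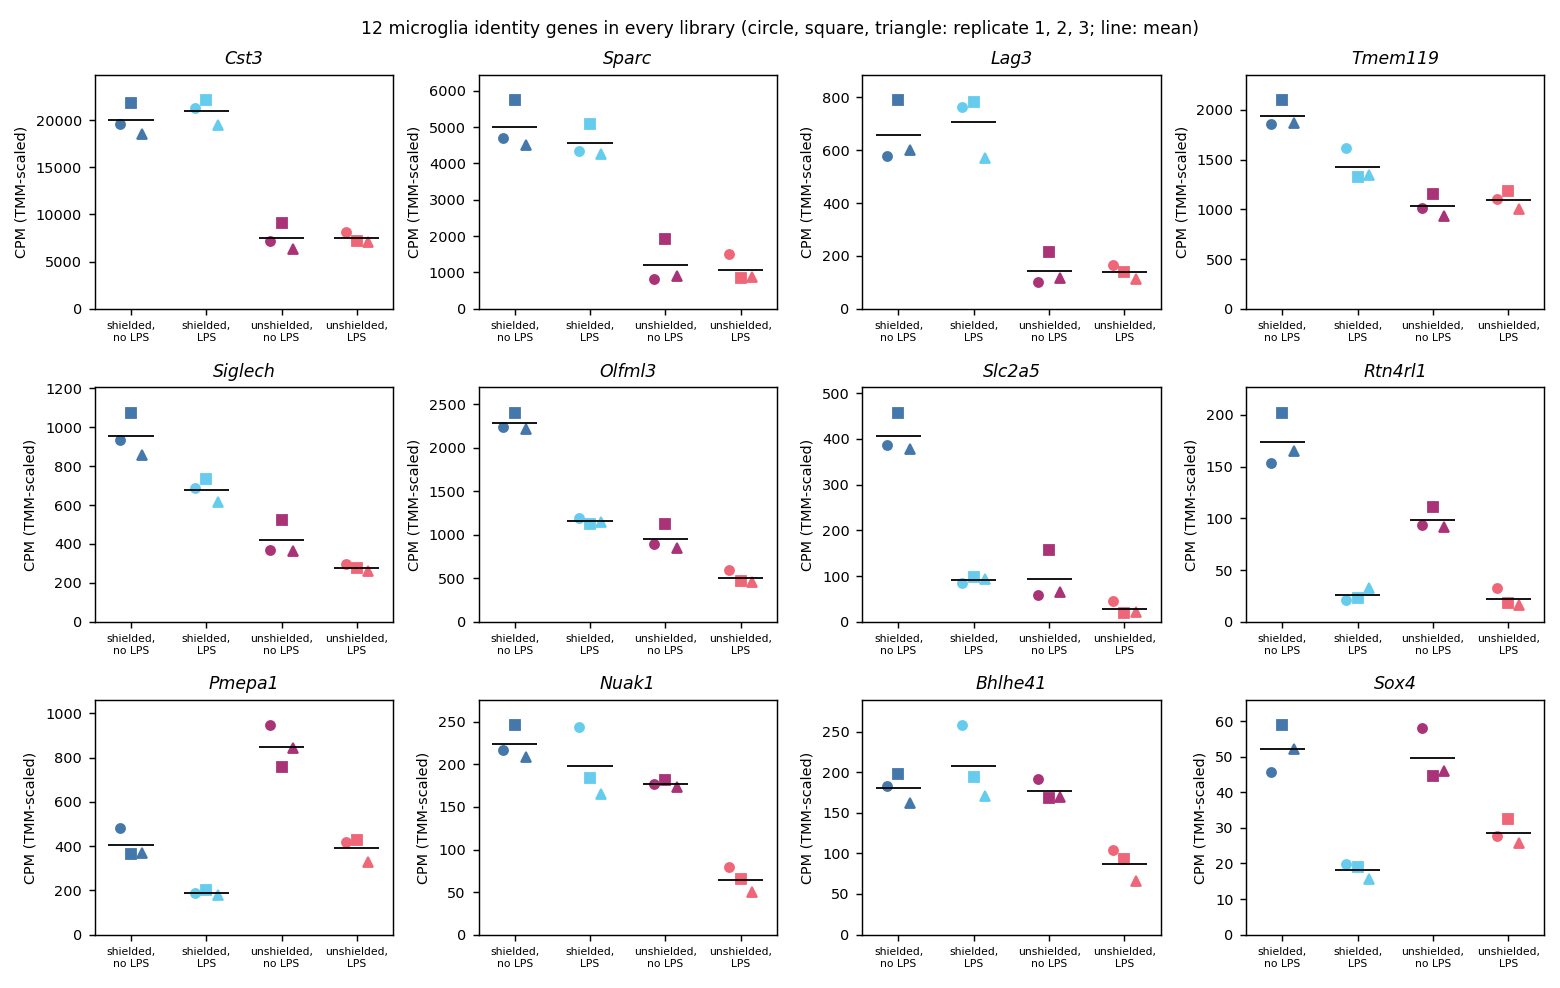
TMM-scaled CPM (vertical axes, linear, from 0) of 12 identity genes in each of the 12 libraries (points), by group (horizontal axis), with the group mean as a line. Cst3, Sparc and Lag3 separate by shield and not by LPS, Rtn4rl1 separates by LPS, Pmepa1 moves in opposite directions for the LPS and shield comparisons, and Nuak1 and Bhlhe41 are low only in unshielded LPS libraries.

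Of the 6 genes for secreted and matrix proteins, 5 were lower in unshielded mice in both states, beside 5.17% of all genes. With LPS in shielded mice 2 fell, a share near the 35.1% of all genes. Cst3 (ENSMUSG00000027447) encodes cystatin C, a secreted inhibitor of cysteine proteases. It had 19590, 21770 and 18560 CPM in shielded libraries without LPS and 21280, 22160 and 19440 after LPS. In unshielded libraries it had 7177, 9084 and 6310 CPM without LPS and 8113, 7176 and 7094 after LPS. The shielded libraries formed a high set and the unshielded libraries a low set, whatever the LPS state. The log2 fold change by shield was -1.41 ± 0.14 without LPS (edgeR adjusted p = 0.000191) and -1.49 ± 0.14 after LPS (adjusted p = 9.1e-06), which is 2.65-fold and 2.81-fold lower. With LPS it was 0.07 ± 0.14 in shielded mice (adjusted p = 0.657) and -0.01 ± 0.14 in unshielded mice (adjusted p = 0.949).

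Sparc (ENSMUSG00000018593), a matricellular protein, and Crybb1 (ENSMUSG00000029343), a crystallin, behaved likewise. Sparc had 4714, 5757 and 4504 CPM in shielded libraries without LPS, 4352, 5083 and 4258 after LPS, 809, 1910 and 898 in unshielded libraries without LPS and 1514, 861 and 863 after LPS. Crybb1 had 108, 141 and 115 CPM in shielded libraries without LPS, 134, 148 and 107 after LPS, 30.9, 48.0 and 20.1 in unshielded libraries without LPS and 37.9, 27.0 and 28.1 after LPS. Relative to their means, both varied more between libraries in the unshielded groups than in the shielded groups, and library 2 without LPS and library 1 after LPS were the highest of their groups. The shield difference of Sparc was -2.05 ± 0.32 without LPS (4.14-fold lower, edgeR adjusted p = 0.00195) and -2.08 ± 0.33 after LPS (4.23-fold lower, adjusted p = 0.000396). For Crybb1 it was -1.89 ± 0.27 (adjusted p = 0.00117) and -2.06 ± 0.27 (adjusted p = 0.000123). Their log2 fold changes with LPS lay between -0.16 and 0.10, with adjusted p of at least 0.695.

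Serpine2, a secreted inhibitor of serine proteases, also differed by shield alone, with group means of 307 and 270 CPM in shielded mice without and after LPS and 91.2 and 68.6 CPM in unshielded mice. Olfml3 (ENSMUSG00000027848), a secreted olfactomedin-like protein, fell with LPS and was lower by shield. It had 2234, 2404 and 2215 CPM in shielded libraries without LPS, 1192, 1128 and 1140.0 after LPS, 898, 1122 and 844 in unshielded libraries without LPS and 594, 466 and 457 after LPS. The levels stepped down from group to group in that order, with the 3 shielded LPS libraries just above the highest unshielded library without LPS. Its log2 fold change with LPS was -0.99 ± 0.13 in shielded mice (edgeR adjusted p = 2.75e-05) and -0.92 ± 0.13 in unshielded mice (adjusted p = 0.000105), and by shield it was -1.26 ± 0.13 (adjusted p = 0.000191) and -1.19 ± 0.13 (adjusted p = 2.2e-05). Rnase4, a secreted ribonuclease, fell a little with LPS in shielded mice (-0.39 ± 0.11, adjusted p = 0.00901; 0.0526 without the doubtful libraries). It was higher in unshielded mice after LPS (0.37 ± 0.11, adjusted p = 0.0173), a call that ended without shielded LPS library 1 (0.0908) or unshielded LPS library 1 (0.0757) or 3 (0.0508). Rnase4 shares 13.4% of its exon bases with Ang, so its reads are uncertain.

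Of the 7 tested genes for transporters, enzymes and Golgi proteins, 5 fell with LPS in each shield state, beside 35.1% of all genes in shielded and 18.8% in unshielded mice. Without LPS 5 were lower in unshielded mice, beside 6.85%. Slc2a5 (ENSMUSG00000028976), the fructose transporter, had 386, 458 and 378 CPM in shielded libraries without LPS and 83.7, 98.5 and 94.4 after LPS. It had 59.3, 158 and 65.2 CPM in unshielded libraries without LPS and 44.3, 19.2 and 21.6 after LPS. Shielded libraries without LPS were above all the others, and the shielded LPS libraries overlapped the unshielded libraries without LPS. The log2 fold change was -2.14 ± 0.39 with LPS in shielded mice (edgeR adjusted p = 0.000668), -1.73 ± 0.39 in unshielded mice (adjusted p = 0.00441), -2.12 ± 0.39 by shield without LPS (adjusted p = 0.00499) and -1.70 ± 0.39 after LPS (adjusted p = 0.00481). Without unshielded library 2 of those without LPS the shield difference without LPS was -2.71 (adjusted p = 0.000474). With a replicate block the LPS call in unshielded mice ended (-1.66, adjusted p = 0.168).

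Liph, a lipase that forms lysophosphatidic acid, had the largest shield difference of the 31 genes, at low counts. It had 20.1, 31.4 and 19.7 CPM in shielded libraries without LPS, 17.2, 16.6 and 15.9 after LPS, 3.06, 7.66 and 3.20 in unshielded libraries without LPS and 2.64, 1.87 and 1.98 after LPS. It was 5.24-fold lower without LPS (log2 fold change -2.39 ± 0.33, edgeR adjusted p = 0.000743) and 7.65-fold lower after LPS (-2.93 ± 0.33, adjusted p = 4.25e-05). Its fall with LPS in unshielded mice (-1.06 ± 0.33, adjusted p = 0.0224) ended as a call without unshielded LPS library 2 (0.0832) or 3 (0.0716), and without unshielded library 2 of those without LPS, where it was -0.56 (0.0712), and without a filter on low counts (0.083). In shielded mice the change was -0.52 ± 0.30 (adjusted p = 0.146; -0.49 and adjusted p = 0.0326 with a replicate block).

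Abcc3, an efflux pump of organic anions, fell with LPS and was not lower by shield. It had 268, 301 and 238 CPM in shielded libraries without LPS, 103, 109 and 111 after LPS, 328, 294 and 273 in unshielded libraries without LPS and 181, 173 and 137 after LPS. Its log2 fold change with LPS was -1.32 ± 0.12 under the shield (edgeR adjusted p = 1.51e-06) and -0.87 ± 0.12 without it (adjusted p = 0.000101). After LPS it was higher in unshielded mice (0.60 ± 0.12, adjusted p = 0.00155), while without LPS the difference was 0.15 ± 0.12 (adjusted p = 0.56). The uptake transporter Slco2b1 fell with LPS (-0.71 ± 0.16 and -0.70 ± 0.16, adjusted p = 0.00214 and 0.00398) and did not pass the test by shield (-0.39 and -0.37). After LPS it passed without unshielded LPS library 1 (-0.61, adjusted p = 0.00779), and without LPS it passed in a fit of only the groups compared (-0.36, adjusted p = 0.0438). Kctd12, an auxiliary subunit of GABA-B receptors, went down in all 4 comparisons, with group means of 467 and 224 CPM in shielded mice without and after LPS and 281 and 152 CPM in unshielded mice. Of its exon bases 62.8% are shared with Gm26778 on the opposite strand, so its reads are uncertain.

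Ltc4s, the synthase that forms cysteinyl leukotrienes, passed the LPS test in shielded mice. It had 50.0, 63.3 and 55.7 CPM in shielded libraries without LPS, 26.4, 37.5 and 30.3 after LPS, 29.1, 33.2 and 24.8 in unshielded libraries without LPS and 28.9, 25.4 and 24.3 after LPS. The shielded libraries without LPS were high and the other 3 groups overlapped. Its log2 fold change was -0.84 ± 0.14 with LPS in shielded mice (edgeR adjusted p = 0.000232) and -0.96 ± 0.14 by shield without LPS (adjusted p = 0.000954). It was -0.15 ± 0.14 with LPS in unshielded mice (adjusted p = 0.418). Golm1, a Golgi membrane protein, was lower by shield without LPS (-1.14 ± 0.14, adjusted p = 0.000399) and after LPS (-0.72 ± 0.14, adjusted p = 0.00152). With LPS in shielded mice Golm1 changed by -0.31 ± 0.14 (adjusted p = 0.0688; -0.32 and adjusted p = 0.0211 with a replicate block; adjusted p = 0.0471 without shielded LPS library 2 and 0.0457 without unshielded library 2 without LPS).

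Of the 7 genes for signalling and transcription, 3 fell with LPS in shielded mice and 5 in unshielded mice, beside 35.1% and 18.8% of all genes. By shield without LPS 2 were lower, beside 6.85%. Pmepa1 (ENSMUSG00000038400), a membrane protein that is induced by TGF-beta and damps its signalling, went in opposite directions. It had 482, 366 and 371 CPM in shielded libraries without LPS and 189, 199.9 and 180.3 after LPS. Unshielded libraries had 946, 759 and 845 CPM without LPS and 417, 428 and 328 after LPS. Unshielded libraries were above shielded ones in each LPS state, and LPS libraries below the others in each shield state. With LPS its log2 fold change was -1.10 ± 0.14 in shielded mice (edgeR adjusted p = 1.95e-05) and -1.12 ± 0.14 in unshielded mice (adjusted p = 3.67e-05). By shield it was higher in unshielded mice by 1.07 ± 0.14 without LPS (adjusted p = 0.000437) and by 1.04 ± 0.14 after LPS (adjusted p = 7.55e-05). It was the member called higher by shield in both LPS states.

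Sox4 (ENSMUSG00000076431), a transcription factor, had 45.8, 58.9 and 52.3 CPM in shielded libraries without LPS, 19.8, 19.0 and 15.5 after LPS, 58.2, 44.7 and 46.1 in unshielded libraries without LPS and 27.8, 32.5 and 25.7 after LPS. The groups without LPS overlapped, and the LPS libraries were lower, most so in shielded mice. Its log2 fold change with LPS was -1.53 ± 0.14 in shielded mice (edgeR adjusted p = 1.4e-06) and -0.80 ± 0.14 in unshielded mice (adjusted p = 0.000506). It was higher in unshielded mice after LPS (0.66 ± 0.14, adjusted p = 0.00205). Sox4 shares 54.6% of its exon bases with Gm26735 on the opposite strand, so its reads are uncertain.

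Nuak1 (ENSMUSG00000020032), a kinase related to AMPK, and Bhlhe41 (ENSMUSG00000030256), a transcriptional repressor of the basic helix-loop-helix family, fell with LPS in unshielded mice and did not pass the test in shielded mice. Nuak1 had 217, 246 and 209 CPM in shielded libraries without LPS, 244, 184 and 166 after LPS, 177, 182 and 174 in unshielded libraries without LPS and 79.2, 64.8 and 50.1 after LPS. Bhlhe41 had 183, 198 and 162 CPM in shielded libraries without LPS, 258, 194 and 171 after LPS, 192, 169 and 169 in unshielded libraries without LPS and 104, 93.2 and 65.5 after LPS. For both genes the 3 unshielded LPS libraries were below all the other 9 libraries. With LPS in unshielded mice the log2 fold change was -1.46 ± 0.17 for Nuak1 (edgeR adjusted p = 2.4e-05) and -1.01 ± 0.18 for Bhlhe41 (adjusted p = 0.000621). In shielded mice it was -0.18 ± 0.16 (adjusted p = 0.346) and 0.20 ± 0.17 (adjusted p = 0.327). The shielded value of Nuak1 did pass with library totals (-0.54, adjusted p = 0.00956) and with the neuron and oligodendrocyte level as a covariate (-0.605, adjusted p = 0.035).

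Bin1, an adaptor that bends membranes, went down in all 4 comparisons, with group means of 822 and 377 CPM in shielded mice without and after LPS and 505 and 208 CPM in unshielded mice. Its log2 fold change was -1.12 ± 0.12 and -1.28 ± 0.12 with LPS (edgeR adjusted p = 6.53e-06 and 6.13e-06) and -0.70 ± 0.12 and -0.86 ± 0.12 by shield (adjusted p = 0.00262 and 0.00014). Rhob, a small GTPase, was lower by shield alone (-0.83 ± 0.16 and -0.69 ± 0.16, adjusted p = 0.00534 and 0.00469), with 0.02 and 0.17 with LPS. Inpp5d, a phosphatase that limits PI3-kinase signalling, passed the test in none of these 4 comparisons, with log2 fold changes from -0.35 to 0.24. Scaled by library totals rather than TMM, LPS in shielded mice gave -0.33 for Rhob (adjusted p = 0.0478) and -0.24 for Inpp5d (adjusted p = 0.0344), the opposite sign.

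The change with LPS was then set against the difference by shield for each gene in a single test. The mean LPS change over both shield states minus the mean shield difference over both LPS states is, by arithmetic, the shielded LPS group minus the unshielded group without LPS, and was fitted as that contrast. The LPS change lay above the shield difference for 15 of the 31 genes, beside 34.8% of all genes, and below it for 6, beside 35.1% of all genes. For 10 genes they were not told apart. The median over the 31 genes was 0.38, beside -0.10 for all genes. By role, the genes whose LPS change lay above their shield difference were 7 of 11 surface genes, 4 of 6 secreted, 2 of 7 transport and enzyme and 2 of 7 signalling genes. The reverse held for 1, 1, 1 and 3.

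The 15 genes were Ecscr (2.61 ± 0.34, edgeR adjusted p = 4.6e-05), Lag3 (2.30 ± 0.28, adjusted p = 2.02e-05), Crybb1 (1.98 ± 0.27, adjusted p = 6.36e-05), Sparc (1.92 ± 0.32, adjusted p = 0.000298), Liph, Serpine2, Cst3 (1.48 ± 0.14, adjusted p = 1.27e-06), Selplg (1.42 ± 0.21, adjusted p = 6.45e-05), Adgrg1, Rhob, Golm1, Siglech, Tmem119, Inpp5d and Cd33. For Cd33 (0.39 ± 0.15, adjusted p = 0.0382) and Inpp5d (0.46 ± 0.12, adjusted p = 0.00547) the LPS change was above 0, so a positive value does not mean a shield difference alone. In shielded and unshielded mice the LPS change was also above 0 for Ecscr (0.473 and 0.147) and Rhob (0.023 and 0.165). The main edgeR test called none of these LPS changes of Ecscr and Rhob. The Cd33 call ended without any of 5 single libraries: shielded LPS 1 (0.067) or 2 (0.165), and unshielded without LPS 1 (0.103), 2 (0.0608) or 3 (0.0723). With library totals the calls of Tmem119 (0.08, adjusted p = 0.453), Siglech (0.31, adjusted p = 0.0604), Adgrg1 (0.76, adjusted p = 0.0635) and Inpp5d (0.08, adjusted p = 0.455) ended. That scaling also turned the sign of Cd33 (-0.005, adjusted p = 0.972) and of Fcrls (from 0.08 to -0.29, adjusted p = 0.00813).

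The 6 genes whose LPS change lay below their shield difference were Pmepa1 (-2.16 ± 0.14, edgeR adjusted p = 7.33e-08), Rtn4rl1 (-1.95 ± 0.26, adjusted p = 5.26e-05), Abcc3 (-1.47 ± 0.12, adjusted p = 4.93e-07), Sox4 (-1.46 ± 0.14, adjusted p = 1.67e-06), Rnase4 (-0.46 ± 0.11, adjusted p = 0.00305) and Bin1 (-0.42 ± 0.12, adjusted p = 0.00837). Of these, only Bin1 was called lower by shield. Pmepa1 was called higher in unshielded mice in both LPS states, and Abcc3, Sox4 and Rnase4 after LPS. Their values thus join a fall with LPS and a higher level by shield. The Bin1 call ended without shielded LPS library 2 (-0.31, adjusted p = 0.0557). Slc2a5 (-0.03 ± 0.38, adjusted p = 0.956), Olfml3 (0.27 ± 0.13, adjusted p = 0.0721), Jam2 (0.28, adjusted p = 0.312), Ltc4s (0.12, adjusted p = 0.481) and Kctd12 (-0.33, adjusted p = 0.0523) were not told apart, although each was lowered by both LPS and the missing shield in at least 1 state. Leaving out unshielded library 2 without LPS brought Olfml3 (0.42, adjusted p = 0.0136), Jam2 (0.61, adjusted p = 0.0195) and Upk1b (1.54, adjusted p = 0.016) past the threshold. For Jam2 and Upk1b the comparison depends on that library. Olfml3 also passed without unshielded LPS library 1 (0.29, adjusted p = 0.0445).

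**Figure D3:**
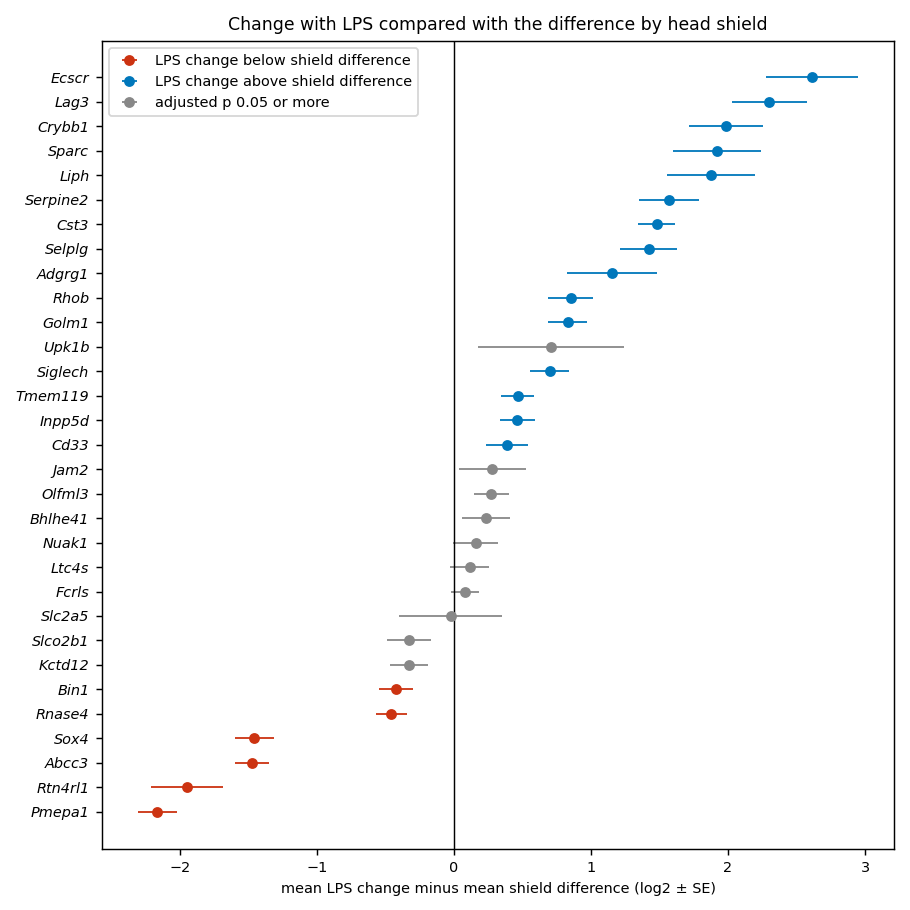
Mean LPS change minus mean shield difference on the log2 scale ± SE (horizontal axis) for each of the 31 tested genes (rows). Points right of 0 (15 called) had the lower level by shield, or the higher level with LPS. Points left of 0 (6 called) had the lower level with LPS, or the higher level by shield.

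The LPS effects themselves differed between the shield states for 4 of the 31 genes by the test of the difference. It was lower in unshielded mice for 2 (6.45%), beside 9.25% of all genes, and higher for 2 (6.45%), beside 4.06%. The share called in either direction was thus near the 13.3% of all genes. The difference of log2 fold changes was -1.28 ± 0.23 for Nuak1 (edgeR adjusted p = 0.00504) and -1.21 ± 0.25 for Bhlhe41 (adjusted p = 0.00889). It was 0.73 ± 0.19 for Sox4 (adjusted p = 0.0266) and 0.70 ± 0.20 for Ltc4s (adjusted p = 0.0379). For Nuak1 and Bhlhe41 the calls held when any 1 library was left out and ended without both doubtful libraries (adjusted p = 0.0745 and 0.108), as did those for Sox4 (0.54, adjusted p = 0.278) and Ltc4s (0.52, adjusted p = 0.307). The Sox4 call ended without any of 6 single libraries and the Ltc4s call without any of 7. For the other 27 genes the difference did not pass the edgeR test. DESeq2 called 5 genes, with Tmem119 added, and Cd33 (0.58 ± 0.21, adjusted p = 0.0956) passed with library totals (0.0231), without a filter (0.0405), with the covariate (0.0118) and with a replicate block (0.0378).

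Other genes by which microglia are known were counted in the same way. Of 20 such genes, 13 fell and 3 rose with LPS in shielded mice, beside 35.1% and 32.4% of all genes. In unshielded mice 14 fell and 4 rose, beside 18.8% and 24.3%. Lower in unshielded mice were 14 without LPS, beside 6.85%, and 14 after LPS, beside 25.6%. None was higher by shield with edgeR or DESeq2, also at an unadjusted p under 0.05. Most of the 14 calls by shield without LPS ended without the 2 libraries with conflicting labels. Their median log2 fold change was -0.61 and -0.44 with LPS and -0.62 in each shield comparison. Gpr34, a lysophospholipid receptor, had a log2 fold change of -3.47 ± 0.24 with LPS in shielded mice (edgeR adjusted p = 2.67e-07), and Slc46a1, a folate transporter, of -1.68 ± 0.14 (adjusted p = 8.31e-07). The nucleotide receptor P2ry6 (1.16 ± 0.11, adjusted p = 1.7e-06) rose. In unshielded mice the transcription factor Mef2c (-1.16 ± 0.10, adjusted p = 1.9e-06) and the fractalkine receptor Cx3cr1 (-1.98 ± 0.19, adjusted p = 4.95e-06) fell, and P2ry6 (0.79 ± 0.11, adjusted p = 8.81e-05) rose. The nucleotide receptor P2ry12 was lower in unshielded mice without LPS (-1.49 ± 0.19, adjusted p = 0.000393).

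When the LPS change of the 20 genes was set against the shield difference, it was above for 8 and below for 7, shares near those of all genes (34.8% and 35.1%). Examples are P2ry6 (1.30 ± 0.11, edgeR adjusted p = 5.21e-07) above, and Gpr34 (-2.49 ± 0.23, adjusted p = 1.98e-06) and Mef2c (-0.76 ± 0.10, adjusted p = 1.87e-05) below. The LPS effect differed by shield state for Cx3cr1 (-1.20 ± 0.26, adjusted p = 0.0101) downward, and for Gpr34 (1.10 ± 0.31, adjusted p = 0.0379) and the phagocytic receptor Mertk (0.60 ± 0.18, adjusted p = 0.0482) upward. With groups by title, Cx3cr1 thus had a larger fall in unshielded mice, as had Nuak1 and Bhlhe41. The calls of Cx3cr1, Gpr34 and Mertk in this difference ended without the 2 libraries with conflicting labels. That fit has a lone shielded library without LPS.

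Markers of other cells moved with the groups. The summed level of 10 genes of marrow-derived brain macrophages, among them Ms4a7, Clec12a and Apoe, was 8450 to 27370 CPM in shielded libraries without LPS, 4328 to 6414 after LPS, 65660 to 99160 in unshielded libraries without LPS and 89610 to 117600 after LPS. Apoe alone made up most of the sum in every library, as with 23553 of 27370 CPM in shielded library 1 without LPS. The sum therefore does not stand for each gene. With LPS in shielded mice 7 of the 10 were called lower and 3 higher, beside 35.1% and 32.4% of all genes. All 10 were called higher in unshielded mice without LPS and 9 after LPS, beside 3.98% and 19.1% of all genes. The list was chosen with earlier results of these data known, so these counts are not an independent test. None of the 10 was at 0 in any library. The identity genes summed to 41740 to 49950 CPM, 38440 to 43900, 18400 to 24480 and 18390 to 21700 in the same order. Cst3 was the largest part of this sum, with group means of 19970, 20960, 7524 and 7461 CPM, and was not called with LPS. The sum of the identity genes thus does not stand for each of them either. Their mean log2 CPM was at least 8.69 without and at most 8.29 after LPS in shielded libraries. In unshielded libraries it was at least 7.57 without and at most 7.48 after LPS. The 8 neuron and 7 oligodendrocyte markers moved with LPS in shielded mice, where 7 of 8 and 7 of 7 were called lower, beside 35.1% of all genes. Neuron markers summed to 191 to 357 CPM without LPS and 35.0 to 173 after LPS, and oligodendrocyte markers to 1771 to 2796 and 424 to 1319 CPM, and none was at 0 in any library. In unshielded mice edgeR called 0 and 1 of them with LPS (0 and 2 with DESeq2, and 0 and 2 at an unadjusted p under 0.05), where it called 43.1% of all genes. By shield without LPS both tools called none, also unadjusted, where edgeR called 10.8% of all genes. After LPS edgeR called 1 of each list higher in unshielded mice, with medians of 0.98 and 0.74, beside 19.1% of all genes. In the comparison of the LPS change with the shield difference it called all 8 and all 7 lower, beside 35.1%. With the level of those markers as a covariate, the LPS calls in shielded mice ended for Slc2a5 (-1.92, edgeR adjusted p = 0.0811), Adgrg1 (-1.18, adjusted p = 0.184), Slco2b1 (-0.64, adjusted p = 0.0661), Rnase4 (-0.38, adjusted p = 0.0889) and Fcrls (0.29, adjusted p = 0.15). By shield after LPS they ended for Tmem119 (-0.21, adjusted p = 0.197), Kctd12 (-0.28, adjusted p = 0.0762) and Upk1b (-2.21, adjusted p = 0.0715). In the comparison of LPS change and shield difference they ended for Tmem119 (0.18, adjusted p = 0.35), Siglech (0.50, adjusted p = 0.0644), Adgrg1 (1.01, adjusted p = 0.228), Rhob (0.52, adjusted p = 0.0765), Inpp5d (0.12, adjusted p = 0.563) and Bin1 (-0.43, adjusted p = 0.0746). The part of these other cells in the differences of the identity genes was not tested further.

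The libraries of a group moved together over the identity genes. In unshielded mice without LPS, library 2 had the highest value of its group in 24 of the 31 genes, and it also had the lowest sum of marrow-derived macrophage markers, 65660 CPM beside 99160 and 81850. Most of that sum is Apoe, here and in the other groups. Of the unshielded LPS libraries, number 1 was the highest in 23 genes and had the lowest such sum, 89610 CPM beside 117600 and 106200. In shielded mice without LPS, number 2 was the highest in 29 genes with the lowest sum, 8450 CPM beside 27370 and 13710. Among shielded LPS libraries, number 2 was the highest in 18 genes with the lowest sum, 4328 CPM beside 4998 and 6414. Monocyte markers summed to 41.8 to 58.7 CPM in shielded libraries without LPS, 85.7 to 163 after LPS, 26.2 to 38.4 in unshielded libraries without LPS and 139 to 229 after LPS. Neutrophil markers summed to 136 to 322, 273 to 474 and 44.3 to 131 CPM in the same order, and to 904, 299.8 and 246 CPM in the unshielded LPS libraries, where library 1 stood apart. These levels are given as measured, and their part in the results was not tested.

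**Figure D4:**
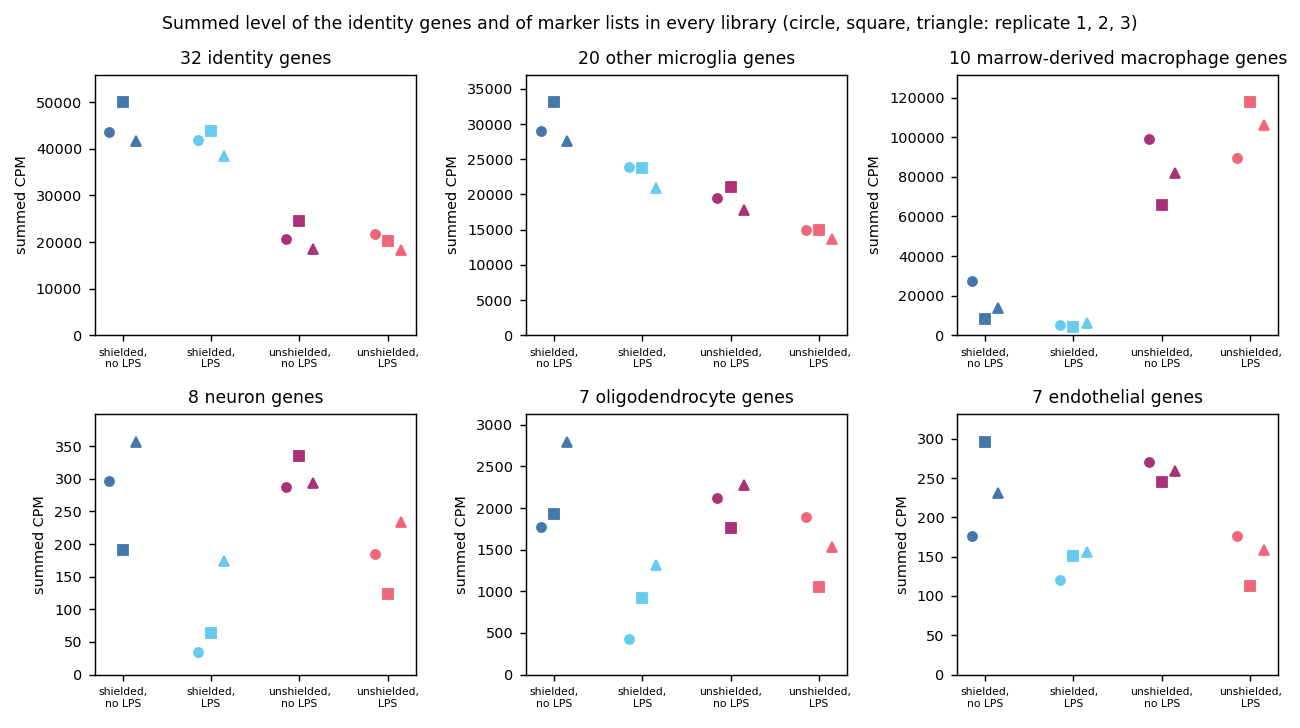
Summed CPM (vertical axes, linear, from 0) of the 32 identity genes, 20 other microglia genes and marker lists of marrow-derived macrophages, neurons, oligodendrocytes and endothelial cells in each of the 12 libraries (points), by group (horizontal axis). The identity genes are at 38440 CPM or more in shielded and at 24480 CPM or less in unshielded libraries, and the marrow-derived macrophage markers lie at 27370 or less and at 65660 or more. Cst3 is the largest part of the first sum, and Apoe makes up most of the second.

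The shield comparison without LPS depends on the 3 shielded libraries without LPS, and 2 of these have the conflicting treatment field. Without these 2, and with a lone library assumed to vary like the other groups, 10 of the 31 genes were called, all lower: Tmem119, Siglech, Olfml3, Golm1, Selplg, Cst3, Lag3, Serpine2, Liph and Jam2. The other 10 calls ended at adjusted p from 0.0613 to 0.145, for Sparc (-1.98), Slc2a5 (-2.05), Crybb1 (-1.73), Adgrg1 (-1.99), Bin1 (-0.71), Rhob (-0.69), Pmepa1 (0.81), Ecscr (-1.90), Ltc4s (-0.80) and Kctd12 (-0.73) by edgeR. Each of these 20 genes kept its direction, and no value of the 31 moved by more than 0.25 on the log2 scale.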

How the data were processed

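Per the submitters' processing notes, the authors used FastQC, STAR and HTSeq with build mm9. For the versions, annotation and strand setting: not given in the sources used here. RNA was linearly amplified, per the labels' protocols. The values the authors deposited are raw counts of reads by gene in 12 libraries, per the file headers, and genes have at least 2 counts in all. Because the strand setting is unknown, the 10 members that share exon bases with another gene (Golm1, Bin1, Sox4, Ecscr, Ltc4s, Bhlhe41, Kctd12, Slco2b1, Gal3st4 and Rnase4) are uncertain. Exon lengths and overlaps come from an annotation of GRCm38.

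The test was edgeR's (version 4.0.16, R 4.3.3; robust quasi-likelihood fit, TMM scaling, two-sided, Benjamini-Hochberg adjustment over 18875 genes after filterByExpr with minimum count 10 and total 15) in a single model of all 12 libraries, and the procedure was tested on simulated data. SE is the size of the log2 fold change over the root of its F statistic. CPM values are TMM-scaled, with a prior count of 2 for log2 CPM. No 2 libraries of a group were copies, with a chi-square per degree of freedom of at least 11.2. Deviations of same-numbered shielded libraries correlated at 0.112, 0.194 and 0.547 across genes. Shielded LPS library 1 correlated at 0.399 with number 2 without LPS, so the numbers are not shown to mark pairs. The blocked fit, an alternative only, is given beside the calls it changes with LPS in shielded mice. The calls it changes in other comparisons are named beside the gene or in the last paragraph. DESeq2 1.42.0, other scalings, filters and groupings, a marker covariate and leaving out each library were tried as alternatives.

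The identity genes and marker lists were chosen with earlier results of these data known. Values in every library are given for Tmem119, Siglech, Olfml3, Fcrls, Sparc, Cst3 and Selplg and for the 3 called members with the largest change in either direction of each comparison. Of the 20 other microglia genes, the 2 with the smallest p in each direction of each comparison are named, except some that are not reported here. Other list members were named after their values were seen. Marker lists of 6 astrocyte, 4 B cell and 4 T or NK cell genes were also summed, at 156 to 310 CPM, at most 2.91 CPM and at most 0.927 CPM in any library.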

Additional observations from a re-analysis of the deposited data

Results flagged for a closer look

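The LPS effects of 4 identity genes differed between shield states by the test of the difference itself, where 13.3% of all genes did, and edgeR called none of the 4 without the 2 libraries with conflicting labels (4 identity genes had an unadjusted p under 0.05). The unshielded minus shielded difference of the log2 fold changes was -1.28 for Nuak1, which fell in unshielded mice, and -1.21 for Bhlhe41, which fell there too. It was 0.73 for Sox4 and 0.70 for Ltc4s, both of which fell further in shielded mice. The values come from edgeR. As a share, the 4 called genes were near the background of all genes. Of the 31 genes 6.45% were lower and 6.45% higher, beside 9.25% and 4.06% of all genes. Leaving out single libraries ended the Sox4 call for shielded LPS 2 (adjusted p = 0.0609), shielded without LPS 2 (0.0672) and 3 (0.0767), unshielded LPS 1 (0.0621), and unshielded without LPS 2 (0.0922) and 3 (0.0874). It ended the Ltc4s call for shielded LPS 1 (adjusted p = 0.112), shielded without LPS 2 (0.0889) and 3 (0.0951), unshielded LPS 1 (0.115) and 3 (0.052), and unshielded without LPS 1 (0.1) and 3 (0.117).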

How the results depend on the processing

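With 3 libraries a group, leaving out 1 library at a time gave 15 to 18 identity genes called with LPS in shielded mice and 10725 to 13697 genes in all. With LPS in unshielded mice it gave 14 to 18 and 6219 to 9442, by shield without LPS 20 to 21 and 1094 to 2353, by shield after LPS 24 to 27 and 6362 to 11101, for the difference of LPS effects 2 to 4 and 1615 to 6391, and for the LPS change against the shield difference 19 to 23 and 11850 to 14070. The main counts for all genes were 12738, 8128, 2043, 8423, 2512 and 13188 in that order. Beside the genes named above, leaving out 1 library brought past the threshold Liph with LPS in shielded mice (adjusted p = 0.0292, unshielded without LPS 2), Upk1b (0.0305 and 0.00953, unshielded LPS 1 and unshielded without LPS 1), Serpine2 (0.0418, unshielded without LPS 3) and Inpp5d (0.0421, unshielded LPS 3) with LPS in unshielded mice, Ltc4s (0.0466, shielded LPS 1) and Inpp5d (0.0389, shielded LPS 3) by shield after LPS, Abcc3 (0.0462, unshielded LPS 3) in the difference, and Kctd12 (0.0153 and 0.0294, shielded LPS 1 and unshielded LPS 2), Slco2b1 (0.0331, unshielded LPS 3) and Olfml3 (0.0445, unshielded LPS 1) in the last comparison.

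Without the 2 libraries with conflicting labels, all genes called with LPS in shielded mice numbered 8369, by shield without LPS 292 (10 identity genes) and for the difference 148 (0 identity genes, 4 at an unadjusted p under 0.05). Grouped by the treatment field, the counts were 0 (0 identity genes) with LPS in shielded mice, 117 (1) in unshielded mice, 0 (0) by shield without LPS, 1464 by shield after LPS, 0 (0) for the difference and 899 (12) for the last comparison. At an unadjusted p the 3 counts of 0 were 284 (1), 809 (16) and 481 (2). That grouping puts libraries with low LPS-response genes into the LPS group. It reversed Sox4 (-0.25) and Abcc3 (-0.12) by shield after LPS, Sox4 in the difference (-0.37) and Bin1 in the last comparison (0.15). The neuron and oligodendrocyte covariate gave 6757 genes with LPS in shielded mice, 3406 by shield without LPS and 7639 in the last comparison, where Cd33 was reversed (-0.027). Without a filter the difference gave 1571 genes. Library totals reversed Rhob (-0.33) and Inpp5d (-0.24) with LPS in shielded mice and Fcrls (-0.29) and Cd33 (-0.005) in the last comparison. The cause was not tested. They also changed the split of all genes with LPS from 6619 lower and 6119 higher to 9131 and 4042 in shielded mice, and from 3543 and 4585 to 6520 and 2656 in unshielded mice. In the last comparison the split went from 6620 lower and 6568 higher to 9107 and 4368.

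A replicate block, with the pairing by library number, gave 22 identity genes with LPS in shielded mice (19 lower, 3 higher), 14 in unshielded mice, 25 by shield without LPS (3405 genes in all), 24 after LPS, 5 for the difference and 22 for the last comparison. With LPS in unshielded mice the block ended the calls of Slc2a5 (-1.66, adjusted p = 0.168) and Fcrls (0.34, adjusted p = 0.0859). By shield after LPS it ended those of Tmem119 (-0.33, adjusted p = 0.0717) and Kctd12 (-0.50, adjusted p = 0.055). It brought Rtn4rl1, Upk1b, Nuak1, Slco2b1 and Inpp5d past the threshold by shield without LPS, and Slco2b1 in the last comparison. Same-numbered correlations ran from 0.112 to 0.547 in the shielded LPS comparison and from -0.264 to 0.478 outside it. The numbers are thus not shown to pair the libraries in any comparison.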
